A study of Homo sapiens with 4 samples.

Results

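The genes described here are 59 human genes that mark neuroendocrine cells, neurons, neural progenitors and synapses, followed by name in LNCaP cells that overexpress ETV5. They were chosen by symbol, with earlier results of these data known, and looked up among the 17902 genes of the deposited table. A row was present for 27 of them, and the other 32 had no row. Every row of the table has at least 1 read in each of the 4 libraries, so a gene with 0 reads in 1 library would have no row.

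RNA was sequenced from LNCaP, an androgen-sensitive line grown from a human prostate carcinoma metastasis. There were 2 libraries with ETV5 overexpression (ETV5_OE), ETV5 being an ETS-family transcription factor of the PEA3 subgroup, and 2 Control libraries of genotype WT. The labels name no drug, time point, vector or clone for either group, and do not say whether the Control cells carried an empty vector. Nothing in them says that replicates came from separate cultures. Both ETV5_OE libraries carry 1 name that differs by a final R. The Control names differ in number, and 1 of them also ends in R. The p-values and SDs therefore measure the spread between libraries that may be technical repeats. The title of the study concerns neuroendocrine prostate cancer (NEPC), and the comparison of ETV5_OE with Control asks here which neuroendocrine and neural genes differ when ETV5 is raised.

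Neuroendocrine cells store peptides in dense-core granules, which carry chromogranins and secretogranins, and release them through calcium-triggered fusion by SNARE proteins and synaptotagmins. Neurons use related machinery for synaptic vesicles, and a shared set of transcription factors drives both fates. Prostate adenocarcinoma is luminal and depends on the androgen receptor, while NEPC is recognised by chromogranin, synaptophysin, neuron-specific enolase and similar markers.

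The total was 22369062 and 24642392 counts in ETV5_OE replicates 1 and 2, against 30227070 and 20639543 counts in Control replicates 1 and 2. ETV5 had 534 and 522 counts in the ETV5_OE libraries, against 22 and 27 counts in the Control libraries, which matches the labels. Luminal markers were present at high levels, with a row for 14. KLK3, which encodes prostate-specific antigen, stood at 2105 and 2396 CPM in ETV5_OE and at 3427 and 3732 CPM in Control (log2 fold change -0.67, SE 0.15, edgeR adjusted p = 0.214). CPM is the read count of a gene scaled to the TMM-adjusted size of its library. The summed level of the 14 luminal markers was 7125 and 7782 CPM in ETV5_OE and 9507 and 10279 CPM in Control. KLK3 passed with DESeq2 (adjusted p = 0.0120). The markers next in CPM, which takes no account of gene length, were FOLH1 (log2 fold change 0.02, with a sign that differed with total-count scaling) and STEAP2 (-0.24). Of the 14, 0 had an edgeR adjusted p under 0.05. At an unadjusted p under 0.05, 7 were lower in ETV5_OE (50%) and 0 higher. Over all genes tested, 3.51% were lower and 3.63% higher at that threshold. Of 6 stromal markers 4 had a row, and their sum was 86.0 CPM in ETV5_OE replicate 1, 11.7 CPM in ETV5_OE replicate 2, and 11.0 and 12.6 CPM in Control. In ETV5_OE replicate 1 the collagen gene COL1A2 stood at 41.4 CPM, COL1A1 at 27.0 CPM and COL3A1 at 15.5 CPM, against 0.0835, 10.1 and 0.960 CPM in ETV5_OE replicate 2. In Control COL1A2 had 0.326 and 1.72 CPM, COL1A1 9.52 and 9.02 CPM and COL3A1 0.620 and 1.38 CPM. No basal marker of 5 had a row, and 1 endothelial marker (VWF), 1 immune marker (CD68) and 2 glial markers (MBP and AQP4) had one. CD68, a lysosomal protein of macrophages, had 9.10 and 16.9 CPM in ETV5_OE and 5.71 and 8.45 CPM in Control, with no overlap (log2 fold change 0.89, SE 0.35, edgeR adjusted p = 0.664). MBP, a myelin protein, had 66.5 and 69.8 CPM in ETV5_OE and 83.8 and 74.1 CPM in Control, also with no overlap (log2 fold change -0.21, SE 0.14, adjusted p = 0.853), while the groups overlapped for VWF and AQP4. The part that other cell types play in the results below was not tested.

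Most of the defining neuroendocrine genes had no row. A missing row does not mean that a gene was not assayed, since a gene without reads in some library would have none. Of 7 granule proteins and processing enzymes, only SEC11C, a catalytic subunit of the signal peptidase complex, had a row. CHGA, CHGB, SCG2, SCG3, SCG5 and PCSK1 had none. NCAM1, INSM1 and UCHL1 had none, and neither did SCN3A, CRMP1, JAKMIP2, TRIM9, GNAO1, SOX2, PROX1 and ID4. The vesicle and SNARE genes without a row were SNAP25, SYT1, SVOP, SYN1 and CPLX2. The remaining ones were NES, PROM1, L1CAM, STMN4, GAP43, NEFM, NEFH, GRIN2D, NRXN3 and NRCAM. In all 45.8% of the members had a row, against 64.4% of the 20056 protein-coding genes of the RefSeq annotation of GRCh38.p14. Members were matched by symbol and the RefSeq genes by gene ID. A member listed under another symbol would therefore count as having no row. A gene that went between no reads and some reads in these cells cannot be seen in this table.

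Levels of different genes are compared here in FPKM, in which the authors scaled reads by transcript length and library size. Among the 27 members with a row, 5 had a mean above 10 FPKM, 12 lay between 1 and 10 FPKM, and 10 lay under 1 FPKM. Their median was 1.29 FPKM, against 7.74 FPKM for all protein-coding genes with a row. SYT4, at 154 FPKM in ETV5_OE and 318 FPKM in Control, and SEC11C, at 104 FPKM in ETV5_OE and 124 FPKM in Control, stood far above the rest. By mean FPKM, SYT4 ranked 212 and SEC11C 474 among all 17902 genes. The next were MSI2 (13.6 FPKM over all libraries), HOMER1 (12.4 FPKM), SYT7 (12.1 FPKM) and BMI1 (9.72 FPKM). The order of MSI2, HOMER1 and SYT7 is not firm, while BMI1 was below each of them in every library.

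**Figure D1:**
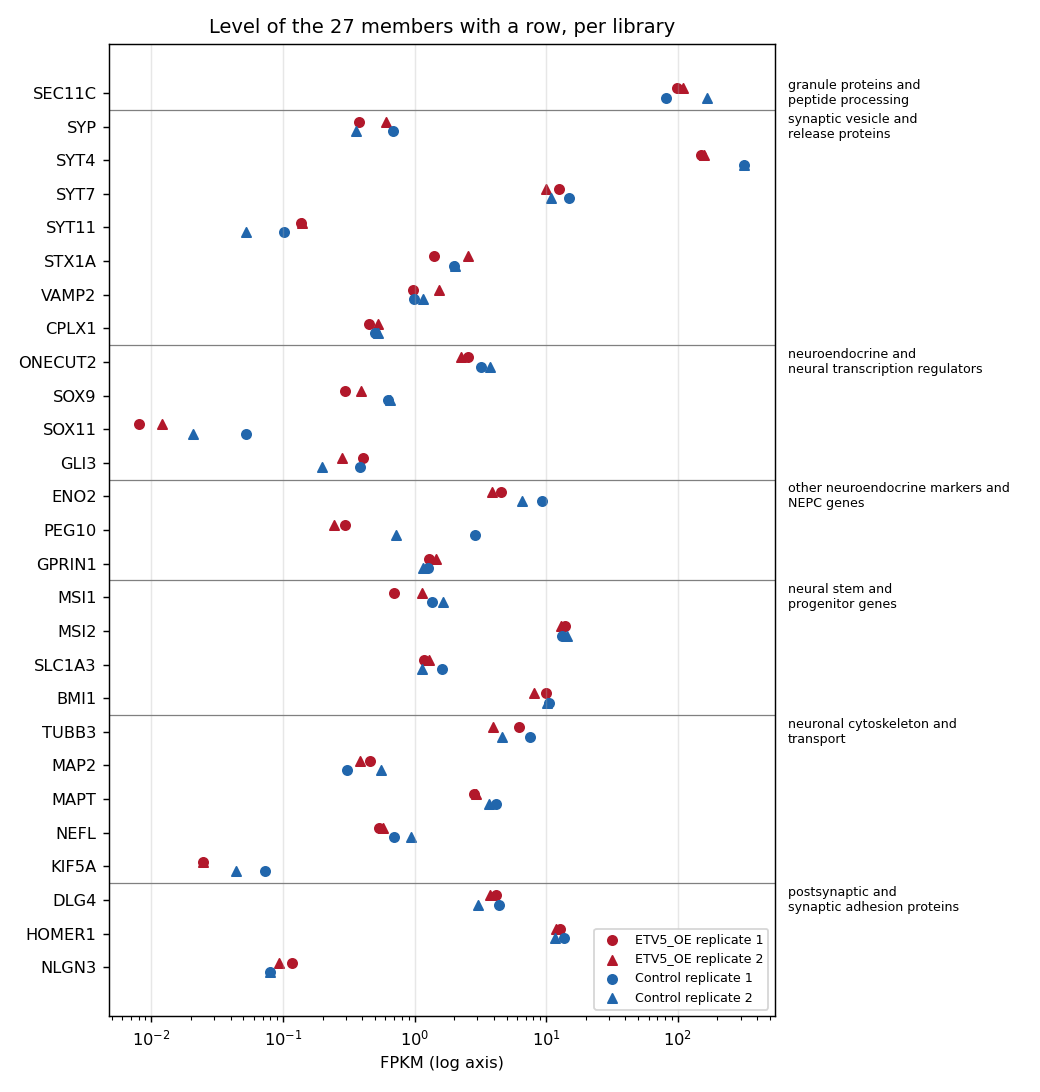
FPKM of each of the 27 members with a row, on a log axis, in ETV5_OE (red) and Control (blue) libraries, with circles for replicate 1 and triangles for replicate 2, grouped by role. SYT4 and SEC11C stand alone near and above 100 FPKM. SYT4, ENO2, PEG10 and ONECUT2 have both ETV5_OE points left of both Control points. So do SOX9, SOX11, MSI1, BMI1, MAPT, NEFL and KIF5A. In SYT11, GPRIN1 and NLGN3 both ETV5_OE points lie right of both Control points on this scale.

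Of the 27 members, 25 passed the expression filter and were tested with edgeR's quasi-likelihood test, with Benjamini-Hochberg adjustment over all 16194 genes tested. SYT4 was the 1 member called at an adjusted p under 0.05, and it was lower in ETV5_OE. Over all genes 0.148% were called lower and 0.253% higher. At an unadjusted p under 0.05, 4 members were lower (SYT4, ENO2, ONECUT2 and PEG10) and 0 were higher, a share of 16% lower, against 3.51% lower and 3.63% higher over all genes. The groups did not overlap, with both ETV5_OE libraries lower, for 9 of 25 members (36%, against 18.8% of all genes). Both ETV5_OE libraries were higher for 2 of 25 (8%, against 18.8%). The log2 fold change was below 0 for 16 members and above 0 for 9, with a median of -0.13 and a range from -2.68 to 0.79, against a median of 0 over all genes, of which 49.4% were below 0. The members were chosen with results known and share 4 libraries, so these counts are a description. Without ETV5_OE replicate 1 or 2, edgeR called 0 members (3 and 1 at an unadjusted p under 0.05) and 0 genes of the whole table (689 and 931 at an unadjusted p under 0.05). It called 1 member without Control replicate 1, where 1.47% of all genes were called, and 2 without Control replicate 2, where 0.846% were. DESeq2 called 2 members and 1.3% of all genes. The other tests called 1 member and 0.235% of all genes with limma-voom, 0 and 0.136% without robust estimation, 0 and 0.34% with the replicate number as a block, and 0 members with limma on FPKM, where 0.0969% of genes were called with a pseudocount of 1 and 0.0895% with one of 0.1. In the settings with 0 members called, 4 had an unadjusted p under 0.05 without robust estimation and with the block, and 2 with limma on FPKM.

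The members with an edgeR unadjusted p under 0.05 are SYT4, ENO2, ONECUT2 and PEG10, of which only SYT4 was called after adjustment. For the first 3, RefSeq gives 1 start each, and the 250 bases before that start (GRCh38.p14) are shown because ETV5 is an ETS factor. These genes were picked by their unadjusted p in these same data. They had both ETV5_OE values below both Control values, as did other members such as SOX9, MSI1, BMI1, MAPT and NEFL. Capitals mark GGAA, the core letters of ETS motifs, or TTCC where GGAA lies on the other strand. The windows are chr18:43277491-43277740 on the minus strand for SYT4, chr12:6914330-6914579 on the plus strand for ENO2 and chr18:57435124-57435373 on the plus strand for ONECUT2, each written 5′ to 3′ on the gene's strand.
SYT4: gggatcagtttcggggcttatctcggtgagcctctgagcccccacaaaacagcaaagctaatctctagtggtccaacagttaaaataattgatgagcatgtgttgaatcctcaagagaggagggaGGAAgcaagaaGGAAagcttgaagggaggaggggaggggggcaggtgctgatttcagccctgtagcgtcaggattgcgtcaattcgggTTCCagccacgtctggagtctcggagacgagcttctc
ENO2: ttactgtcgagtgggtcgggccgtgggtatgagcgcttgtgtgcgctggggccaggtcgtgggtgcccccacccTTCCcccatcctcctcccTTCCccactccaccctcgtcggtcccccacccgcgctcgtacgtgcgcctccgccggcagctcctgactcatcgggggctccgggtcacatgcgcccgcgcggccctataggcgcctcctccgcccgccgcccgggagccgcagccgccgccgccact
ONECUT2: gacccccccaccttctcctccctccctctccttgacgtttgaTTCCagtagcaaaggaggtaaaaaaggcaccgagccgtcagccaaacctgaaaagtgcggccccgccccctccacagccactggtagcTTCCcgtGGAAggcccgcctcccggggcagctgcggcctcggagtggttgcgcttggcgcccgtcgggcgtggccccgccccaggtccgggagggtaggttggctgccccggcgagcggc

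SYT4's window holds GGAA 2 times on the given strand and 1 time on the other, ENO2's holds it 2 times on the other strand, and ONECUT2's 1 time on the given and 2 times on the other strand. The same 4 letters occur in 92.7% of all 35116 promoter windows of that length and in 93.1% of the 29 windows that RefSeq gives for 17 of the 27 members, with a median of 3 matches a window in both. The longer ETS consensus CCGGAAGT, searched on both strands, occurs in none of these 29 windows, against 3.42% of all windows and 5.86% of the 17280 windows of genes with a row. Every match of the longer motif contains the shorter one. The matches are letters in a window, and binding was not measured.

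SYT4 encodes synaptotagmin 4, a vesicle protein of neurons and endocrine cells that regulates dense-core vesicle exocytosis (gene ID 6860; chromosome 18, 43267892 to 43277490 in GRCh38). It had 618 and 673 CPM in ETV5_OE, against 1303 and 1282 CPM in Control. Both Control values lie far above both ETV5_OE values, and the libraries of a group differed by 1.09 times at most. SYT4 fell 2-fold in ETV5_OE (log2 fold change -1.0, SE 0.14, adjusted p = 0.0352), at 646 ± 38.9 CPM in ETV5_OE and 1292 ± 14.5 CPM in Control (SD, n = 2 each). In bulk RNA, fewer cells that express a gene and less RNA per cell cannot be told apart. The log2 fold change lay between -1.07 and -0.94 with each library left out, but the call was lost without ETV5_OE replicate 1 (adjusted p = 0.507) or 2 (0.335), without robust estimation (0.0704), with the replicate number as a block (0.0931) and with limma on both FPKM scales. In the authors' deposited table its fold is -2.18, a minus sign meaning lower in ETV5_OE, with an unadjusted p of 0.0363. SYT4 was 56.4% and 59.6% of the summed CPM of all 27 members in ETV5_OE, against 71.4% and 70.3% in Control, so any sum over these genes mostly follows SYT4.

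The rest of the vesicle and release genes were far lower in level, and none of them was called. Without SYT4, the 6 others summed to 70.4 and 61.7 CPM in ETV5_OE and to 79.9 and 60.8 CPM in Control, ranges that overlap. SYT7, a high-affinity calcium sensor that also acts in lysosome and granule release (chromosome 11, 61513714 to 61588387), makes up most of that sum. It had 61.8 and 49.6 CPM in ETV5_OE and 69.7 and 51.7 CPM in Control (log2 fold change -0.13, SE 0.19, adjusted p = 0.950). SYT11, the closest relative of SYT4, had 17 and 19 counts in ETV5_OE, against 18 and 6 in Control, a level of 0.762 and 0.793 CPM against 0.587 and 0.286 CPM (log2 fold change 0.79, SE 0.63, adjusted p = 0.884). Both ETV5_OE values lie above both Control values, but the counts are too few to tell a difference of this size from the spread. Synaptophysin, SYP, the classical vesicle marker of NEPC, had 22 and 38 counts in ETV5_OE, against 53 and 19 in Control. That is 0.986 and 1.59 CPM in ETV5_OE and 1.73 and 0.907 CPM in Control, with overlapping groups (log2 fold change -0.05, SE 0.55, adjusted p = 0.993). The SNARE proteins STX1A, of the plasma membrane, and VAMP2, of the vesicle, and the complexin CPLX1, which binds assembled SNAREs, lay between 1.03 and 5.01 CPM in every library. Their log2 fold changes were 0.01, 0.24 and -0.01 with SEs of 0.35, 0.38 and 0.50, and the sign for STX1A changed with the setting.

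SEC11C (gene ID 90701; chromosome 18, 59139884 to 59158832), the second most abundant member, had 81.8 and 92.6 CPM in ETV5_OE and 66.4 and 135 CPM in Control. The Control libraries enclosed both ETV5_OE values and differed by 2.04 times between themselves. Its log2 fold change was -0.21 (SE 0.37, adjusted p = 0.959) and turned to 0.39 without Control replicate 2 and to -0.63 without Control replicate 1.

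Among the transcription regulators, ONECUT2, a homeodomain factor linked to NEPC and to lower androgen receptor activity in prostate cancer (gene ID 9480; chromosome 18, 57435374 to 57491298), had 44.0 and 39.7 CPM in ETV5_OE, against 54.1 and 63.7 CPM in Control. The groups did not overlap, and the log2 fold change was -0.49 (SE 0.16, unadjusted p = 0.0146, adjusted p = 0.475 with edgeR). SOX9, a progenitor factor of many epithelia and of glia, had 28 and 41 counts in ETV5_OE, against 79 and 56 in Control, or 1.26 and 1.71 CPM against 2.58 and 2.67 CPM (log2 fold change -0.82, SE 0.42, adjusted p = 0.783). SOX11, a neural progenitor factor, had 2 and 3 counts in ETV5_OE and 15 and 5 in Control and stayed below the filter. GLI3, a Hedgehog pathway factor, had 3.59 and 2.59 CPM in ETV5_OE and 3.36 and 1.72 CPM in Control, with overlapping groups (log2 fold change 0.27, SE 0.45).

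ENO2 encodes neuron-specific enolase, a glycolytic isoform used as a serum and tissue marker of NEPC (gene ID 2026; chromosome 12, 6914580 to 6923697). It had 10.9 and 9.60 CPM in ETV5_OE, against 22.1 and 15.4 CPM in Control. Both Control values lie above both ETV5_OE values, and the Control pair differed by 1.43 times. The log2 fold change was -0.87 (SE 0.24, unadjusted p = 0.00656, adjusted p = 0.345 with edgeR) and lay between -1.10 and -0.59 with each library left out.

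PEG10, an imprinted gene of retrotransposon origin that is raised in many NEPC tumours (gene ID 23089; chromosome 7, 94656325 to 94669695), had the largest difference among the tested members and the least even Control pair. It had 46 and 43 counts in ETV5_OE, against 601 and 104 in Control. The level was 2.06 and 1.80 CPM in ETV5_OE and 19.6 and 4.96 CPM in Control, so that the Control libraries differed by 3.95 times while the ETV5_OE libraries differed by 1.15 times. Both ETV5_OE libraries lie below both Controls. The log2 fold change was -2.68 (SE 0.73, unadjusted p = 0.0167, adjusted p = 0.501). Without Control replicate 1 it was -1.36 (adjusted p = 0.274), and without Control replicate 2 it was -3.34 and passed (adjusted p = 0.00199). DESeq2 also called PEG10 (adjusted p = 0.0006) beside SYT4. GPRIN1, a protein of neurite outgrowth, had 5.74 and 6.60 CPM in ETV5_OE and 5.58 and 5.06 CPM in Control (log2 fold change 0.21, SE 0.29, adjusted p = 0.943).

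**Figure D2:**
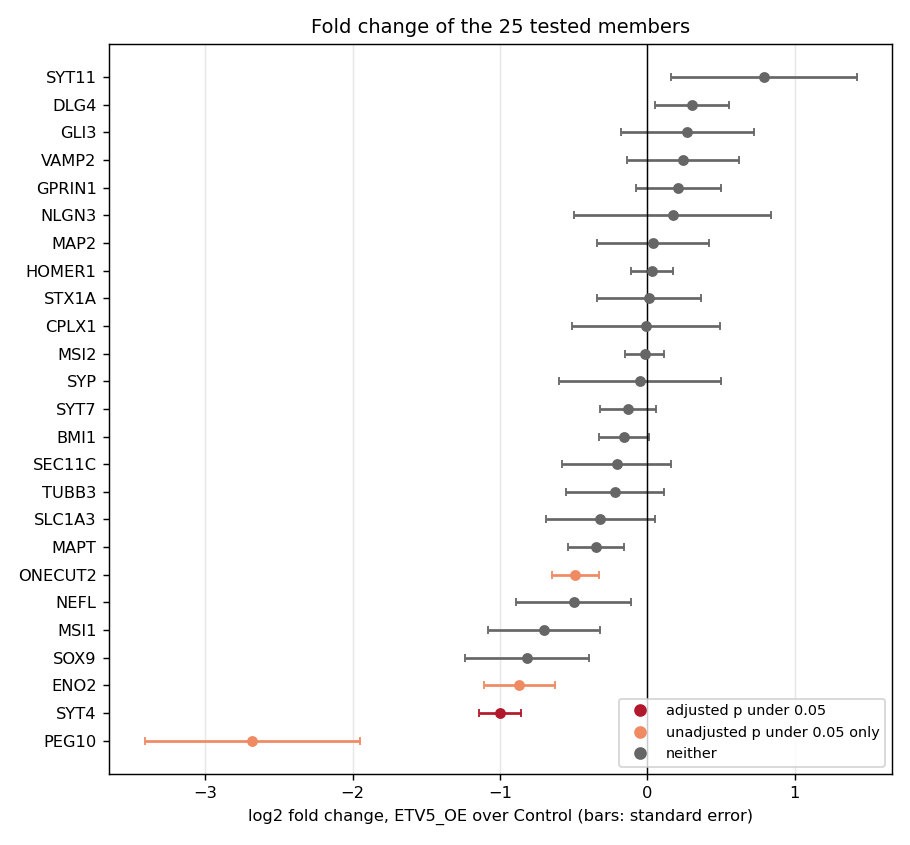
The log2 fold change of each of the 25 tested members, ETV5_OE over Control, with bars for the standard error, ordered by value. SYT4 (-1.0, red) passed the adjusted threshold, and PEG10 (-2.68), ENO2 (-0.87) and ONECUT2 (-0.49) passed only at an unadjusted p under 0.05 (orange).

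None of the 4 neural stem and progenitor genes with a row was called. The RNA-binding protein MSI2, which controls translation in stem cells, had 88.0 and 85.3 CPM in ETV5_OE and 84.7 and 91.1 CPM in Control. Its groups overlapped, and its log2 fold change of -0.02 had one of the smallest errors among the members (SE 0.13, adjusted p = 0.991). Its relative MSI1, which is more restricted to neural progenitors, had 49 and 85 counts in ETV5_OE, against 130 and 107 in Control. That is 2.20 and 3.55 CPM in ETV5_OE and 4.24 and 5.11 CPM in Control, with no overlap (log2 fold change -0.70, SE 0.38, adjusted p = 0.797). BMI1, a Polycomb protein of self-renewal, had 37.2 and 30.9 CPM in ETV5_OE and 38.7 and 37.3 CPM in Control (log2 fold change -0.16, SE 0.17, adjusted p = 0.921). SLC1A3, a glutamate transporter of astrocytes and radial glia, had 3.27 and 2.63 CPM in ETV5_OE and 4.17 and 3.20 CPM in Control, and its groups overlapped (log2 fold change -0.32, SE 0.37).

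Of the neuronal cytoskeleton genes, 4 were tested and none was called. MAPT, the microtubule-binding protein tau, had 16.3 and 18.3 CPM in ETV5_OE and 23.4 and 20.8 CPM in Control. The groups did not overlap, with a log2 fold change of -0.35 (SE 0.19, adjusted p = 0.790). The neurofilament light chain NEFL had 2.20 and 2.38 CPM in ETV5_OE and 2.77 and 3.72 CPM in Control (log2 fold change -0.50, SE 0.39, adjusted p = 0.880). TUBB3, a neuronal beta-tubulin whose reads may be shared with near-identical tubulin genes, had 11.2 and 7.22 CPM in ETV5_OE and 13.3 and 8.11 CPM in Control. Its groups overlapped, as did those of the dendritic protein MAP2, at 4.84 and 4.17 CPM in ETV5_OE and 3.16 and 5.68 CPM in Control. The log2 fold changes were -0.22 (SE 0.33) for TUBB3 and 0.04 (SE 0.38) for MAP2. The axonal kinesin KIF5A had 4 counts in each ETV5_OE library and 15 and 6 in Control and stayed below the filter.

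The 3 postsynaptic genes with a row had log2 fold changes above 0 and overlapping groups. HOMER1, a scaffold that ties glutamate receptors to calcium stores, had 72.8 and 70.5 CPM in ETV5_OE and 74.8 and 65.5 CPM in Control (log2 fold change 0.03, SE 0.14, adjusted p = 0.988), and its sign turned with total-count scaling. DLG4, which encodes the postsynaptic scaffold PSD-95, had 20.1 and 15.1 CPM in ETV5_OE and 16.9 and 11.6 CPM in Control (log2 fold change 0.30, SE 0.25, adjusted p = 0.890). NLGN3, a synaptic adhesion protein, had between 8 and 13 counts in every library (log2 fold change 0.17, SE 0.67).

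**Figure D3:**
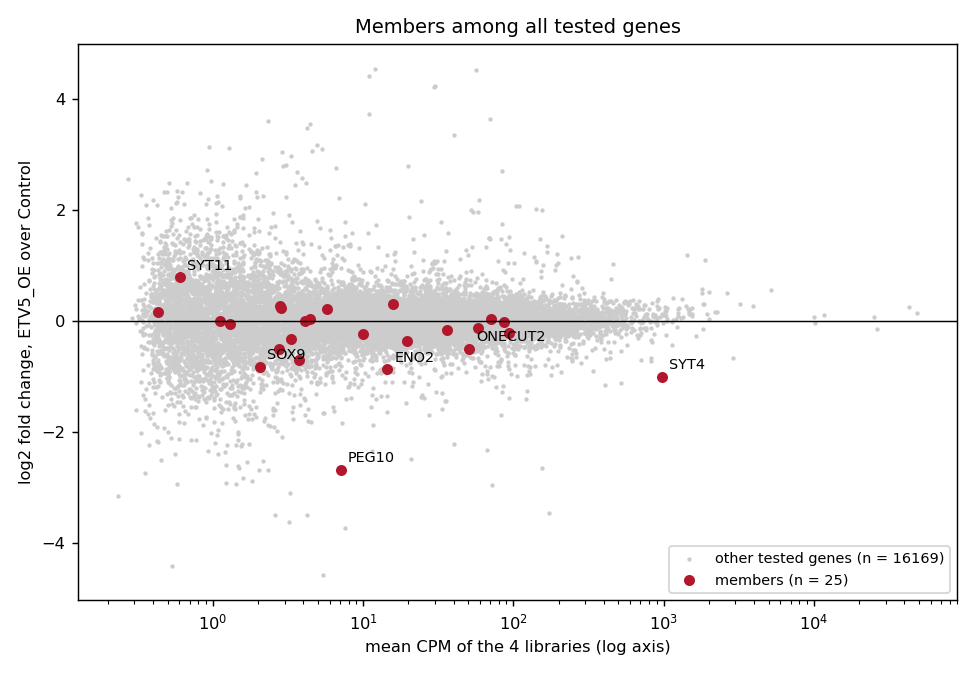
Mean CPM of the 4 libraries (log axis) against the log2 fold change, ETV5_OE over Control, for the 25 tested members (red) and the other 16169 tested genes (grey). SYT4, at -1.0, lies below most genes of similar level, and PEG10 is the lowest member at -2.68.

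The members spread between libraries about as all genes did. The median absolute log2 ratio within a pair was 0.23 in the ETV5_OE pair and 0.27 in the Control pair for the 25 tested members, against 0.23 in the ETV5_OE pair and 0.26 in the Control pair for all tested genes. The Control pair was the wider one for 16 of 25 members (64%, against 53.9% of all genes). SYT4, SEC11C and ONECUT2 share chromosome 18, while the other listed members lie on 12 other chromosomes.

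A wider set of related genes was listed by role for comparison. Of 188 such genes 111 had a row and 107 were tested, with 2 called higher and 0 lower, a median log2 fold change of 0.05, and 7 higher (6.54%) and 8 lower (7.48%) at an unadjusted p under 0.05. Over all genes 0.253% were called higher and 0.148% lower, and 3.63% were higher and 3.51% lower at an unadjusted p under 0.05. Both calls were in the exocytosis list, where 21 of 37 tested genes were above 0 and 16 below 0. CADPS2, which primes dense-core vesicles for release, had 124 and 136 CPM in ETV5_OE, against 48.8 and 50.6 CPM in Control. Both ETV5_OE libraries are far above both Controls, and CADPS2 rose 2.61-fold (log2 fold change 1.38, SE 0.14, adjusted p = 0.00749). SYPL1, a widely expressed relative of synaptophysin, had 69.7 and 68.6 CPM in ETV5_OE, against 32.0 and 28.5 CPM in Control, and rose 2.28-fold (log2 fold change 1.19, SE 0.15, adjusted p = 0.0245). Both calls were lost without ETV5_OE replicate 1 (adjusted p = 0.155 for CADPS2 and 0.412 for SYPL1) or 2 (0.181 and 0.286). On FPKM, limma gave adjusted p = 0.129 for CADPS2 and 0.124 for SYPL1 with a pseudocount of 1, and 0.143 for CADPS2 and 0.133 for SYPL1 with one of 0.1. The call of SYPL1 was also lost without robust estimation (0.0508). RAB3B, a GTPase of regulated secretion, had 119.5 and 118.6 CPM in ETV5_OE, against 222 and 187 CPM in Control, and did not pass (log2 fold change -0.78, SE 0.14, adjusted p = 0.0906). It passed with DESeq2 (adjusted p = 0.00338) and with edgeR without Control replicate 2 (0.0281). Other synaptotagmins of that list were low, with SYT3 at 0.538 and 0.459 CPM in ETV5_OE and 0.946 and 1.43 CPM in Control.

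With all 4 libraries, edgeR called no gene of the other wider lists. Granule and peptide hormone genes had a median of 0.19 over 8 tested, with DDC, the decarboxylase of dopamine and serotonin synthesis, at 269 and 244 CPM in ETV5_OE and 103 and 153 CPM in Control (log2 fold change 1.01, SE 0.20, adjusted p = 0.135). Both ETV5_OE values lie above both Control values, and DDC passed with DESeq2 (adjusted p = 0.00348) and with edgeR without Control replicate 2 (0.00936). PTPRN2, a granule membrane phosphatase, was at -1.12 (SE 0.32, adjusted p = 0.396), and the peptide-amidating enzyme PAM at 0.35 (SE 0.21). Of 28 neural transcription factors 8 had a row, and NEUROD1, POU3F2, FOXA2 and MYCN had none. The median of the 8 was -0.03, with RCOR2 at 0.64 (SE 0.42), HES6 at -0.30 (SE 0.28) and MEIS1 at 0.29 (SE 0.28). Stem and progenitor genes had a median of 0.16 over 12, with CD24 at -0.45 (SE 0.17), ZIC5 at 1.10 (SE 0.44) and NOVA1 at 0.74 (SE 0.31). Cytoskeleton genes had a median of 0.13 over 19, with MAP1B, a microtubule protein of growing axons, at 214 and 165 CPM in ETV5_OE and 279 and 332 CPM in Control (log2 fold change -0.69, SE 0.17, adjusted p = 0.270), ANK3 at 0.30 and MARCKSL1 at 0.26. STMN1 of that list, named after its values were seen, was called by edgeR without Control replicate 1. Postsynaptic and adhesion genes had a median of -0.08 over 23. HOMER2 was at -0.46 (SE 0.13, adjusted p = 0.346). The glutamate receptor subunit GRIN2C had 2.24 and 2.09 CPM in ETV5_OE and 0.881 and 0.286 CPM in Control, a low level (log2 fold change 1.84, SE 0.61, adjusted p = 0.497).

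**Figure D4:**
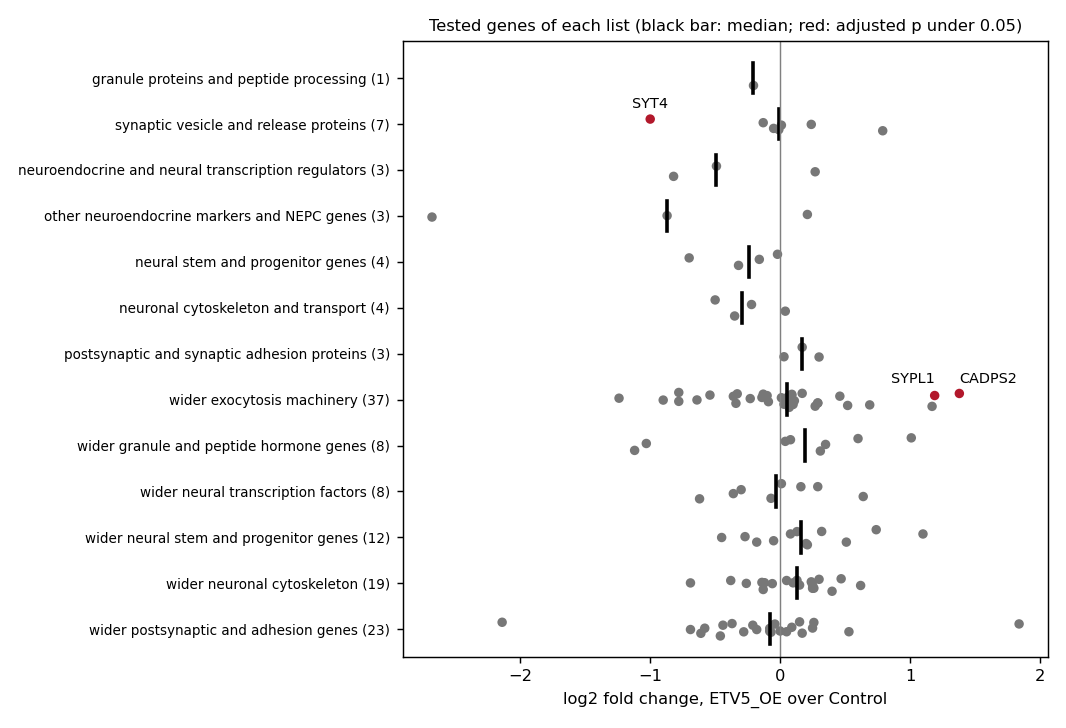
The log2 fold change, ETV5_OE over Control, of each tested gene of the 7 member groups and the 6 wider lists, with the number tested in brackets, a black bar for the median and red for an adjusted p under 0.05. SYT4 is the 1 red point among the members, and CADPS2 and SYPL1 are the red points of the exocytosis list.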

How the data were processed

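LNCaP RNA of 2 ETV5_OE and 2 Control libraries was extracted with TRIzol and sequenced as paired ends, per the labels' protocols. Trimmomatic, HISAT2 and StringTie are the tools, and hg38 the build, per the submitters' processing notes, which give no version, role or strand setting. Per the file headers, the authors deposited raw read counts per gene and FPKM values, which are scaled for transcript length and depth. The deposited fold is a signed score (never between -1 and 1), the deposited p-values are unadjusted, and the deposited group means, on a log2 scale, were not used.

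The test was that of edgeR 4.0.16 (R 4.3.3) on the counts: default filter (minimum count 10), TMM scaling, robust quasi-likelihood F test without a replicate term, Benjamini-Hochberg adjustment over 16194 genes, threshold 0.05. SEs are the fold change over the root of F. Alternatives used DESeq2 1.42.0, limma 3.58.1 (voom, and log2(FPKM + 1) or log2(FPKM + 0.1) for genes at FPKM 1 or more in 2 libraries), other scalings and filters, a replicate block and each library left out. Code was tested on simulated counts with 200 genes changed. It recovered 1.49% of the 1.5-fold, 35.8% of the 2-fold and 75.8% of the 4-fold changes. Of the calls, 16.7% were false, a larger share than the threshold of 0.05 states. A call, that of SYT4 included, may therefore be false more often than the threshold states. A gene that was not called may still differ. The libraries of a pair differed beyond sampling noise (chi-square per degree of freedom 32.7 in ETV5_OE and 43.7 in Control). Coordinates and promoters are RefSeq's for GRCh38.p14, the hg38 build.

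The members and lists were chosen with earlier results of these data known. Full values are given for members with an unadjusted p under 0.05 and the 6 with the highest mean FPKM. Up to 3 genes of smallest p are named from each wider list, and from marker lists the genes of highest mean CPM. SYT3 was named outside this rule to give a level, though unnamed genes of its list, such as SYTL5 and UNC13B, had a smaller p. COL1A2 and COL3A1 were named after their values were seen. A listed gene that the rule names is not reported here. Other members are named by role.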

Additional observations from a re-analysis of the deposited data

How the results depend on the processing

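The count of genes called, 65 with all libraries, was 232 with DESeq2, 38 with limma-voom, 22 without robust estimation, 13 with limma on log2(FPKM + 1), 12 on log2(FPKM + 0.1), and ranged from 0 to 238 when 1 library was left out. The count of members called, 1 (SYT4), was 2 with DESeq2 and 0 without robust estimation, with the replicate block and with both FPKM fits, which tested 16 members and not PEG10. It ranged from 0 to 2 when 1 library was left out, and the cause was not tested. Replicate numbers do not pair the libraries by any label, and same-numbered libraries did not deviate together (r = 0.0187 over 16194 genes). With the replicate block 55 genes were called. The members' median log2 fold change ranged from -0.28 to -0.07 when 1 library was left out. SYT4, PEG10, ENO2 and ONECUT2 stayed below 0 wherever they were tested.

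Signs turned for members near 0. STX1A was at -0.00076 with DESeq2, -0.02 with limma-voom, -0.04 with total counts only, -0.0023 without a filter, -0.02 with the replicate block, and -0.04 and -0.08 with the FPKM fits. HOMER1 was at -0.01 with total counts only and -0.03 with each FPKM fit, MAP2 at -0.01 with total counts only, and FOLH1 at -0.02 with total counts only and -0.03 with each FPKM fit. With 1 library left out the log2 fold changes of genes that turned ranged from -0.13 to 0.10 for CPLX1, -0.13 to 0.19 for FOLH1, -0.12 to 0.84 for GLI3, -0.61 to 0.09 for HES6, -0.06 to 0.13 for HOMER1, -0.33 to 0.51 for MAP2, -0.07 to 0.03 for MSI2, -0.28 to 0.52 for NLGN3, -0.63 to 0.39 for SEC11C, -0.34 to 0.28 for STX1A, -0.44 to 0.50 for SYP, -0.32 to 0.11 for SYT7, -0.58 to 0.18 for TUBB3, -0.02 to 0.45 for VAMP2 and -1.06 to 0.74 for VWF. Few counts limit SYT11, SYP, NLGN3, SOX11 and KIF5A.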
